A study of Mus musculus with 2 samples.

Results

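The MHC class I presentation genes described here are 10 genes taken by symbol from the 32285 genes of both count matrices: H2-K1, H2-D1, H2-T23, B2m, Tap1, Tap2, Tapbp, Psmb8, Psmb9 and Nlrc5. All 10 were found, each as 1 row. The matrices hold unique molecular identifier (UMI) counts, which count captured RNA molecules, from single liver cells of male mice aged 5 months and fed chow. Non-parenchymal cells, the liver cells other than hepatocytes, were released with collagenase and captured with 10x Genomics droplets. There is 1 library from Hep-ADKTg mice (called Tg below), in which the albumin promoter drives overexpression of adenosine kinase in hepatocytes, and 1 from Hep-ADKWT control mice (WT). Whether each library holds 1 mouse or a pool is not stated.

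With 1 library per genotype no difference between the libraries could be tested, and genotype, animal, cell preparation and library cannot be told apart. Intervals in parentheses are exact 95% intervals that cover counting error only. Levels are counts per 1e6 UMIs (CPM) of all cells of a class in a library, given in the order WT, Tg, and ratios are log2 of Tg over WT. Cell classes were rebuilt from marker genes, without using the 10 genes or their pathway to form clusters, and are called "-like".

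The libraries held 97135016 and 96481752 UMIs in 15663 and 17462 barcodes, of which 12482 and 14449 cells were kept with medians of 4807 and 2785 UMIs. The libraries shared 88 barcodes, 58 of them among kept cells. Hepatocyte transcripts were 1.88% and 13.5% of all UMIs in kept cells, and in each of the other 5 classes compared all 31 genes of the hepatocyte list were higher in Tg. B cell-like, liver sinusoidal endothelial cell (LSEC)-like and lymphocyte-like cells lay largely in different clusters in each library, for example B cell-like cells in cluster 3 (1891 and 10 cells) and cluster 6 (148 and 1171 cells). Estimated hepatocyte-derived UMIs were 2.71% and 13.6% in B cell-like, 2.49% and 16.0% in LSEC-like and 1.90% and 11.0% in lymphocyte-like cells. The same estimate gave 1.33% and 6.12% in monocyte-like and 1.71% and 9.48% in erythroid cell-like cells. Clusters without a name held 12.3% and 16.1% of the cells, among them 2 led by hepatocyte transcripts. The 3′ counts cannot check the adenosine kinase transgene, since the 3′ end of its construct is unknown here.

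Class I molecules show peptides from inside the cell to CD8 T cells and are read by natural killer (NK) cells. A heavy chain (H2-K1 or H2-D1 at the classical loci, H2-T23 at the non-classical Qa-1 locus) pairs with beta-2 microglobulin (B2m). Peptides are cut by the proteasome, in which the inducible subunits encoded by Psmb8, Psmb9 and Psmb10 take the places of Psmb5, Psmb6 and Psmb7. They are pumped into the endoplasmic reticulum by the Tap1-Tap2 transporter and loaded with the help of tapasin (Tapbp), and Nlrc5 is the transactivator that works with the RFX, CREB and NF-Y factors at class I promoters. Interferons raise most of these genes, and hepatocytes are known for modest class I display while the sinusoidal cells around them present antigen.

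Of the 10 genes, 8 lie on mouse chromosome 17 in GRCm38 (GENCODE M21), from Tapbp (33915899 to 33929292) over H2-K1 (33996017 to 34000347), Psmb9 (34181987 to 34187764), Tap1 (34187553 to 34197225), Psmb8 (34197721 to 34201454) and Tap2 (34203527 to 34216321) to H2-D1 (35262730 to 35267499) and H2-T23 (36029773 to 36032855). B2m is on chromosome 2 (122147686 to 122153083) and Nlrc5 on chromosome 8 (94434356 to 94527272). The RefSeq promoter table (GRCm38.p6) held 8 of the 10 genes, Tap2 and Nlrc5 being the other two. The sequences below are shown because they carry the letters by which class I promoters are known. In the first set the capitals mark TGACG, the core of the X2 box, and ATTGG, an inverted CCAAT or Y box.
H2-K1: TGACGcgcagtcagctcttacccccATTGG
H2-D1: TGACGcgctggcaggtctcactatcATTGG
B2m: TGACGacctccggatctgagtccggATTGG

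These runs are at chr17:34000359-34000388 (minus strand), chr17:35262993-35263022 (plus strand) and chr2:122147609-122147638 (plus strand). They begin 41, 101 and 78 bases before the RefSeq start site. The H2-D1 run lies inside the 5′ untranslated exon of the longer GENCODE transcript H2-D1-202, whereas the others lie in no GENCODE exon. In all 3 genes the starts of the pair are 25 bases apart. Of 32851 promoter windows of 250 bases, 30 (0.0913%) held this pair at this spacing on either strand, against 17.8% with TGACG and 33.8% with ATTGG anywhere. None of the other 5 genes with an entry held the spaced pair in its window, which says only that these letters are not there at that spacing.

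Longer upstream windows are shown for a heavy chain and for its partner. Capitals mark, in addition, a kappa B motif (GGGATTCCC) in H2-K1 and an interferon-stimulated response element core (GAAANNGAAA) in B2m.
H2-K1: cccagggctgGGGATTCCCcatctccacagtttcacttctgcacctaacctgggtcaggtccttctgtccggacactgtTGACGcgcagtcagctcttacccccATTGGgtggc
B2m: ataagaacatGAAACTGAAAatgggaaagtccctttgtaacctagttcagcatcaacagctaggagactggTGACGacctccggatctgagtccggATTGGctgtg

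They span chr17:34000354-34000467 (minus strand) and chr2:122147538-122147643 (plus strand). H2-D1 held the same kappa B motif 170 bases before its start, and 0.301% of all windows held it on either strand. Aligned at TGACG, the H2-K1 and H2-D1 windows were identical at 166 of 190 bases (87.4%), with a longest identical stretch of 47 bases. The response element core was in 2.98% of windows, and besides B2m it was found in H2-T23, on the opposite strand. Psmb8 held a gamma-activated site (TTCNNNGAA), present in 7.02% of windows. Tap1 and Psmb9 are transcribed away from each other from starts with 225 bases between them. Short runs of these 3 places follow, with the motif (for Tap1, TGACG) in capitals.
H2-T23: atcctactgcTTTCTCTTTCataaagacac
Psmb8: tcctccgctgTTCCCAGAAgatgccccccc
Tap1: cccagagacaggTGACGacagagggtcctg

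They lie at chr17:36032806-36032835 (minus strand), chr17:34198088-34198117 and chr17:34187458-34187487 (both plus strand), each inside a 5′ untranslated exon of at least 1 GENCODE transcript (for the Tap1 run, one of Psmb9). A match is a description of letters and not evidence of binding.

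B2m, the light chain common to all class I molecules, was abundant in every class but the erythroid. It stood at 2781 (2742–2820) and 2859 (2818–2900) CPM in the LSEC-like class. Kupffer cell-like cells held 2643 and 2998 CPM, and 2630 and 2594 CPM were counted in the lymphocyte-like class, which pools T cells, NK cells and innate lymphoid cells. The Kupffer cell-like cluster was led by C1qa, C1qb and C1qc, with the monocyte markers Cx3cr1 and Csf1r among its leading genes. Clec4f, Vsig4, Cd5l, Timd4 and Marco were not among them, and monocyte markers summed to 9315 and 4731 CPM. Whether these are Kupffer cells is not settled. Hepatocyte-like cells, at 2200 (2150–2250) and 2209 (2193–2224) CPM, ranked above monocyte-like cells (2046 and 1889 CPM) and B cell-like cells (1548 and 1577 CPM) in both libraries. Erythroid cell-like cells had the lowest level, 436 and 301 CPM.

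The classical and Qa-1 heavy chains were less abundant in hepatocyte-like than in lymphocyte-like cells. H2-K1 was highest in lymphocyte-like cells, at 2836 (2817–2856) and 2476 (2447–2504) CPM, whereas hepatocyte-like cells held 1190 (1154–1227) and 1165 (1153–1176) CPM. Of H2-D1, hepatocyte-like cells held 373 (352–394) and 303 (297–309) CPM, against 1192 and 1024 CPM in the LSEC-like, 1824 and 1622 CPM in the lymphocyte-like and 2047 and 1627 CPM in the neutrophil-like class. It was thus 2nd lowest in hepatocyte-like cells in both libraries, above erythroid cell-like cells only. H2-T23, whose product Qa-1 is a ligand of the NK receptor CD94-NKG2A, was highest in plasmacytoid dendritic cell (pDC)-like cells at 503 (482–524) and 617 (572–665) CPM, followed by vascular endothelial cell-like cells at 483 and 452 CPM. In hepatocyte-like cells it stood at 58.1 and 56.4 CPM.

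**Figure D1:**
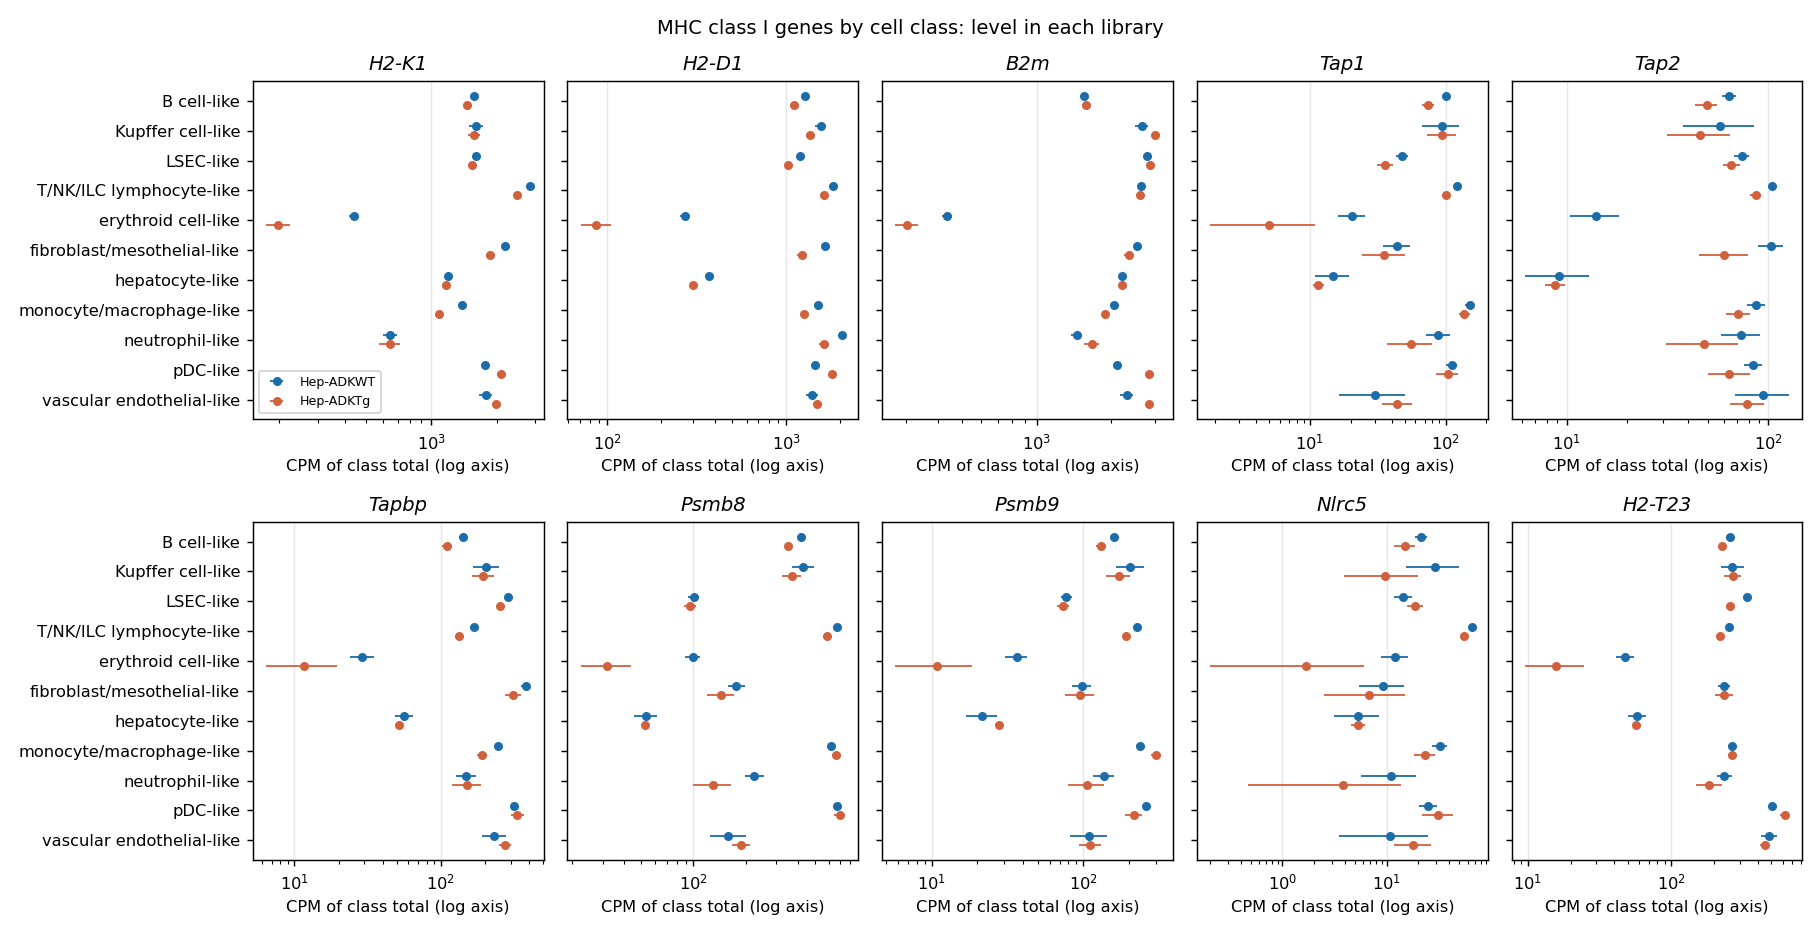
Level of each of the 10 genes (CPM of the class total, log axis) in 11 cell classes, with blue points for the WT library, orange points for the Tg library and bars for exact 95% Poisson intervals; a level of 0 is not drawn. B2m in hepatocyte-like cells (2200 and 2209 CPM) sits among the other classes, while the peptide supply genes are low there.

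The balance of the classical heavy chains differed between classes by more than it did between libraries. H2-K1 made up 76.2% (74.99–77.3) and 79.4% (79.0–79.7) of H2-K1 plus H2-D1 UMIs in hepatocyte-like cells, and 24.1% (22.5–25.7) and 28.3% (25.8–31.0) in neutrophil-like cells. Lymphocyte-like cells were at 60.9% and 60.4%, LSEC-like cells at 57.4% and 60.1%, B cell-like cells at 55.1% and 56.8% and monocyte-like cells at 47.8% and 46.4%. The hepatocyte-like class stood highest and the neutrophil-like class lowest of the 11 classes in both libraries. In neutrophil-like cells H2-K1 was at 649 (602–698) and 643 (576–716) CPM, so the low share went with a low H2-K1 level and an H2-D1 level among the highest. H2-K1 and H2-D1 are closely related genes, and reads from one can be counted for the other or dropped as ambiguous. The effect of the counting on these shares was not tested.

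**Figure D2:**
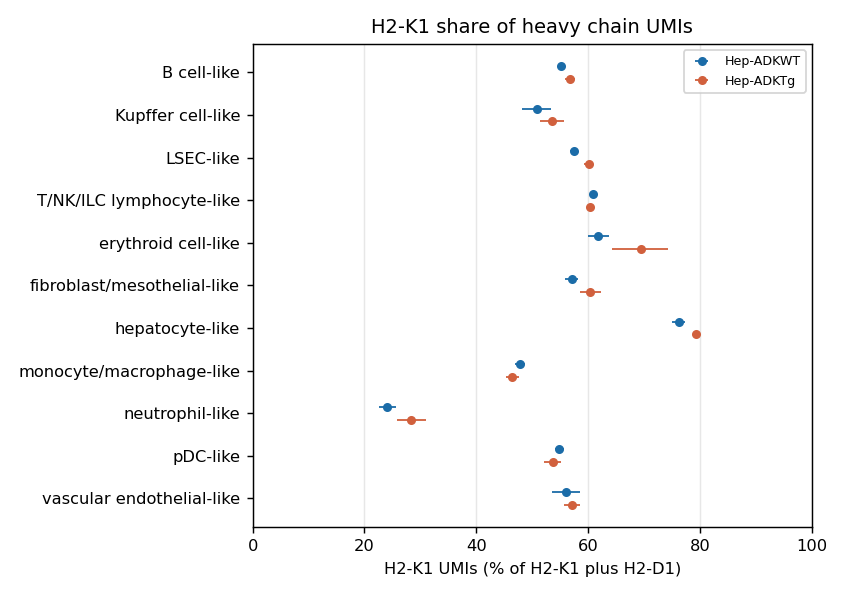
Share of H2-K1 in the summed H2-K1 and H2-D1 UMIs of each class (percent, 0 to 100), blue for WT and orange for Tg, with exact 95% binomial intervals. Hepatocyte-like cells lie at 76.2% and 79.4% and neutrophil-like cells at 24.1% and 28.3%.

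The inducible proteasome genes and Tap1 were highest in immune classes. For Psmb8, encoding the inducible chymotrypsin-like subunit, the pDC-like class held 673 and 694 CPM, the lymphocyte-like class 671 and 589 CPM and the monocyte-like class 615 and 665 CPM. Kupffer cell-like cells (427 and 367 CPM) and B cell-like cells (415 and 351 CPM) were lower, while LSEC-like cells held 100.1 and 95.7 CPM and hepatocyte-like cells 53.1 and 52.9 CPM. For Psmb9 the pDC-like class held 259 and 216 CPM, the monocyte-like class 238 and 300.4 CPM and the lymphocyte-like class 227 and 191 CPM. LSEC-like cells held 77.6 and 73.3 CPM of it and hepatocyte-like cells 21.5 and 27.8 CPM. Tap1 was highest in the monocyte-like class of both libraries, at 151 (140–163) and 138 (125–151) CPM, and in hepatocyte-like cells it stood at 14.7 (10.9–19.4) and 11.6 (10.5–12.7) CPM. Most cells of the monocyte-like class (333 and 326) fell at finer resolution in finer cluster 22 (187 and 207), named for dendritic cells. Values of the class, here and elsewhere, pool it with the monocyte finer cluster 31. In finer cluster 31 the Tg levels of Tap1 and Psmb9, given below, were under those of lymphocyte-like cells.

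Tap2 and Tapbp reached stromal and endothelial cells more evenly. For Tap2 the lymphocyte-like class held 105 and 86.6 CPM, the fibroblast or mesothelial class 102 and 60.4 CPM, the vascular endothelial class 94.5 and 78.7 CPM and the LSEC-like class 73.9 and 65.4 CPM. The chaperone gene Tapbp was highest in the fibroblast or mesothelial (379 and 311 CPM) and pDC-like classes (316 and 332 CPM), and LSEC-like cells (289 and 255 CPM) exceeded lymphocyte-like cells (168 and 134 CPM) in both libraries. In hepatocyte-like cells Tap2 stood at 9.14 and 8.80 CPM and Tapbp at 56.0 and 52.0 CPM.

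Nlrc5, the class I transactivator, was the least counted of the 10 genes, with 2880 and 1325 UMIs over all kept cells. Its level was highest in lymphocyte-like cells, at 66.8 (63.9–69.9) and 55.0 (50.8–59.4) CPM, and none of the other 10 named classes described reached those values in its own library. Monocyte-like cells followed at 32.4 (27.2–38.3) and 23.5 (18.5–29.4) CPM, pDC-like cells stood at 24.99 (20.5–30.2) and 31.5 (21.9–43.8) CPM and B cell-like cells at 21.5 and 14.9 CPM. The intervals of monocyte-like and pDC-like cells overlapped in both libraries, so their order is not settled at this depth. In hepatocyte-like cells 18 and 187 UMIs gave 5.31 (3.14–8.38) and 5.32 (4.59–6.14) CPM.

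Each inducible proteasome subunit can be set against the constitutive subunit whose place it takes. Over the 3 pairs, inducible UMIs made up 78.2% (77.8–78.6) and 74.2% (73.5–74.9) in lymphocyte-like cells, 75.1% and 72.6% in pDC-like, 72.0% and 71.8% in monocyte-like and 71.3% and 65.7% in B cell-like cells. Endothelial classes were intermediate, with 54.2% (52.6–55.8) and 50.2% (48.5–51.9) in LSEC-like and 53.0% and 55.3% in vascular endothelial cell-like cells. Hepatocyte-like cells were at 25.3% (22.96–27.8) and 24.6% (23.96–25.3), the lowest share of the 11 classes in both libraries. In cluster 0 alone, which held most cells of that class (155 and 3138), the shares were 32.89% (25.50–40.97) and 23.37% (21.76–25.05). They came from 152 and 2597 UMIs of the pairs. The closeness of the class shares between libraries thus did not hold in that cluster, and the cause was not tested. These are shares of transcripts with no correction for transcript length, so a level is compared between classes and not between subunits.

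Each pair gave a higher share in lymphocyte-like than in hepatocyte-like cells. The Psmb8 pair stood at 84.7% and 81.2% in the former and 39.5% and 35.1% in the latter. The Psmb9 pair stood at 64.2% and 58.3% against 15.5% and 16.2%, and the Psmb10 pair at 77.4% and 74.8% against 20.1% and 23.5%. The B cell-like difference between libraries was narrower within single clusters, at 63.6% (59.4–67.7) and 62.8% (61.0–64.5) in cluster 6 and 77.3% (75.7–78.8) and 74.5% (71.9–76.9) in cluster 22. After subtraction of an estimated hepatocyte profile, Tg stood at 68.6% in B cell-like, 54.0% in LSEC-like and 76.1% in lymphocyte-like cells. Each was nearer to the WT share before subtraction. The WT share after subtraction is not given here, and the cause of the gaps was not tested. Neutrophil-like cells had 70.4% (66.7–73.9) and 52.3% (46.1–58.5), the widest gap outside the erythroid class. Hepatocyte transcripts took 0.842% and 5.10% of the UMIs of neutrophil-like cells, and their part in the gap was not tested.

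**Figure D3:**
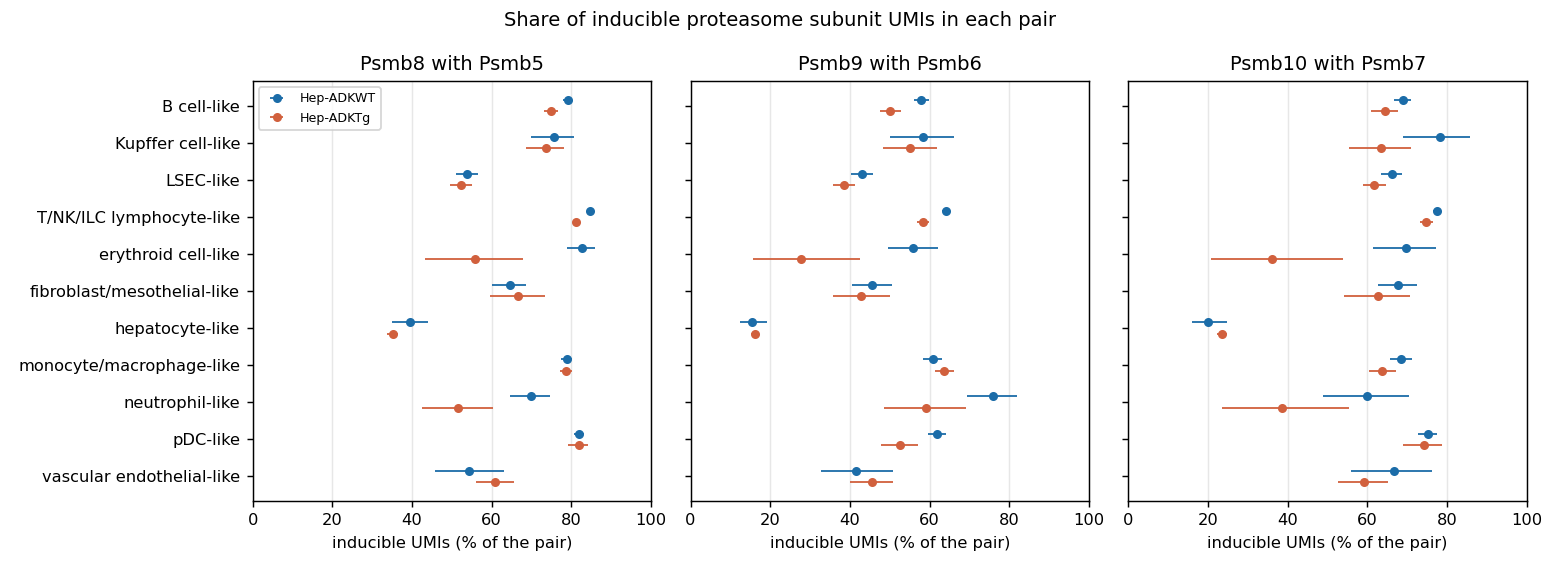
Share of inducible subunit UMIs (percent of each pair, 0 to 100) for Psmb8 with Psmb5, Psmb9 with Psmb6 and Psmb10 with Psmb7 in 11 classes, blue for WT and orange for Tg, with exact 95% binomial intervals. Hepatocyte-like cells are low in all 3 pairs, for example 39.5% and 35.1% in the first.

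Pooled over all kept cells, 9 of the 10 genes were lower in Tg, and 8 of them by at least 1.5-fold, with B2m at 2160 and 2215 CPM as the exception. Of 13612 genes with at least 50 UMIs in each library, 32.3% were lower by at least 1.5-fold in this pooled comparison. The median over the 10 genes was −0.84 beside −0.32 over all genes. TMM scaling shifted all pooled ratios up by 0.33, and the same 9 genes were then lower, 4 of them by at least 1.5-fold, as 15.2% of all genes were. Psmb8 stood at 454 and 227 CPM, Tap1 at 90.4 and 43.8 CPM and Nlrc5 at 35.5 and 17.1 CPM. The make-up of the libraries differed at the same time: lymphocyte-like cells were 36.6% and 17.1% of kept cells, B cell-like cells 17.9% and 9.50%, and hepatocyte-like cells 1.91% and 28.9%. Unnamed clusters 1 (1280 and 1287 cells) and 13 (24 and 644 cells), led by hepatocyte transcripts, are not counted as hepatocyte-like here. In cluster 1, 4 of 6 measured members were higher in Tg, 1 of them by at least 1.5-fold, where 6.49% of all genes were. Its median was 0.26 beside −0.05 over all genes.

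Within classes the differences were small. TMM scaling raised all ratios of a class by a fixed amount, from 0.0531 (hepatocyte-like) and 0.0700 (monocyte-like) over 0.0852 (lymphocyte-like) to 0.127 (LSEC-like) and 0.130 (B cell-like), so signs near 0 depend on it. None of the measured members (those with at least 50 UMIs in each library) reached 1.5-fold in either direction in lymphocyte-like, B cell-like, LSEC-like, hepatocyte-like or monocyte-like cells, where 9.31%, 9.69%, 8.26%, 4.93% and 8.14% of all genes did. With TMM scaling none reached it either, where 8.86%, 9.04%, 7.04%, 4.87% and 7.76% of all genes did, in the same order. Hepatocyte-like cells had 8 measured members, Tap2 and Nlrc5 falling under the minimum in WT, and the other four classes had 10. Part of the hepatocyte-like class went against this, as described with that class. With 1 library each, this is a description of these libraries and not a test that the genotypes are alike.

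In lymphocyte-like cells (4566 and 2476) all 10 genes were lower in Tg on the CPM scale, with a median of −0.22 beside −0.10 over all genes. Tapbp was lowest at −0.33 (−0.41 to −0.25), and Nlrc5 (−0.28), Tap2 (−0.27), Tap1 (−0.27) and Psmb9 (−0.24) followed. The light chain B2m stood at −0.02 (−0.04 to −0.00071) and turned to 0.065 with TMM scaling, while the other 9 kept their sign with TMM and with DESeq2 scaling. In cluster 2 (215 and 1718 cells), which held cells of both libraries, the median was −0.21 beside −0.02 over all genes, and in cluster 16 (503 and 86 cells) it was −0.11 beside 0.04 with 6 of 8 measured members lower. In cluster 26 (173 and 87 cells) the median was nearer to 0, at −0.03 beside −0.002, with 4 of 5 lower. B cell markers in this class summed to 29.7 and 10.5 CPM and hepatocyte markers to 2143 and 12288 CPM. Erythroid markers summed to 957 and 106 CPM, with 6 of 7 higher in WT and 1 in Tg. With an estimated hepatocyte profile subtracted the median of the class was −0.127 and all 10 genes were still lower. The part of the B cell and erythroid transcripts was not tested.

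In B cell-like cells (2235 and 1372) 9 of 10 were lower, with a median of −0.26 beside −0.13 over all genes, and 8 of 10 were lower with TMM scaling, where H2-K1 turned to 0.024. Nlrc5 stood at −0.53 (−0.92 to −0.15), Tap1 at −0.44 (−0.61 to −0.27) and Tap2 at −0.38 (−0.59 to −0.17). B2m stood at 0.03 (−0.01 to 0.06), and its sign turned when the estimated hepatocyte profile was subtracted. The 20 markers of T and NK cells summed to 1184 and 899 CPM here, and 18 of the 20 were higher in WT. Erythroid markers summed to 969 and 120 CPM, with 6 of 7 higher in WT and 1 in Tg, and hepatocyte markers to 3093 and 15181 CPM. The part of these transcripts in the ratios was not tested. Cluster 22 (193 and 142 cells), the B cell-like cluster most evenly filled, gave a median of −0.21 beside −0.05, with all 9 measured members lower.

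LSEC-like cells (1658 and 2406) gave a median of −0.13 beside −0.14 over all genes, so over the whole class the list lay where other genes lay. On the CPM scale 8 of 10 were lower, and with TMM scaling 5 were lower and 5 higher. H2-T23 stood at 335 (322–349) and 257 (245–269) CPM, a ratio of −0.38 (−0.48 to −0.29), and Tap1 at 47.8 (42.8–53.2) and 35.9 (31.5–40.8) CPM, a ratio of −0.41 (−0.66 to −0.17), and both kept their sign in all settings in which they could be measured. Nlrc5 went the other way at 14.3 (11.7–17.4) and 18.9 (15.7–22.5) CPM, from 101 and 124 UMIs, and its sign turned when doublets were kept. B2m stood at 0.04 (0.01 to 0.07). Psmb8 (−0.06), Psmb9 (−0.08) and Tap2 (−0.18) turned sign when the estimated hepatocyte profile was subtracted. The part of the hepatocyte transcripts in the ratios of this class was not tested. In cluster 4 alone (73 and 1286 cells) the median was −0.11 beside −0.01 over all genes, with 4 of 5 measured members lower.

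Hepatocyte-like cells, the class in which the transgene acts, numbered 239 and 4179, and their 8 measured members had a median of −0.04 beside −0.02, and of 0.02 with TMM scaling, where 3 of 8 were lower in Tg in place of 6. B2m (0.006), Psmb8 (−0.005), H2-K1 (−0.03) and H2-T23 (−0.04) stood within counting error of 0, with TMM values of 0.059, 0.048, 0.021 and 0.011. H2-D1 was the member with the clearest gap, −0.30 (−0.38 to −0.21), and Psmb9 stood at 0.37 (0.02 to 0.73). In cluster 10 alone (72 and 817 cells), the deeper of the main hepatocyte-like clusters, H2-D1 stood at −0.24 (−0.33 to −0.14) and Psmb9 at 0.39 (0.01 to 0.81). That cluster held 2928543 of the 3392791 UMIs of the class in WT, so it set most of the class values. In cluster 0, which held most of the cells (155 and 3138) but 149972 UMIs in WT, the 3 measured members were all lower, with a median of −0.48 beside −0.02 over all genes. There H2-K1 stood at −0.48 (−0.69 to −0.25), H2-D1 at −0.49 (−0.89 to −0.06) and B2m at −0.008 (−0.19 to 0.18), and Psmb8, under the minimum with 33 UMIs in WT, at −0.99 (−1.51 to −0.42). In finer cluster 0 (143 and 1873 cells) 2 of 3 measured members were lower by at least 1.5-fold, H2-K1 at −0.60 (−0.85 to −0.35) and H2-D1 at −1.06 (−1.48 to −0.62), where 6.56% of all genes were. The H2-K1 and Psmb8 values near 0 thus did not hold in the shallow cells of the class, whose median depth was 768 and 757 UMIs. Psmb9 had 9 and 148 UMIs in cluster 0, of 149972 and 2625388. That was too few in WT to tell whether its higher level in Tg held there. T and NK cell markers summed to 97.9 and 26.8 CPM in the whole class, with Klra8 and Prf1 at 0 in WT, and their part in these ratios was not tested.

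**Figure D4:**
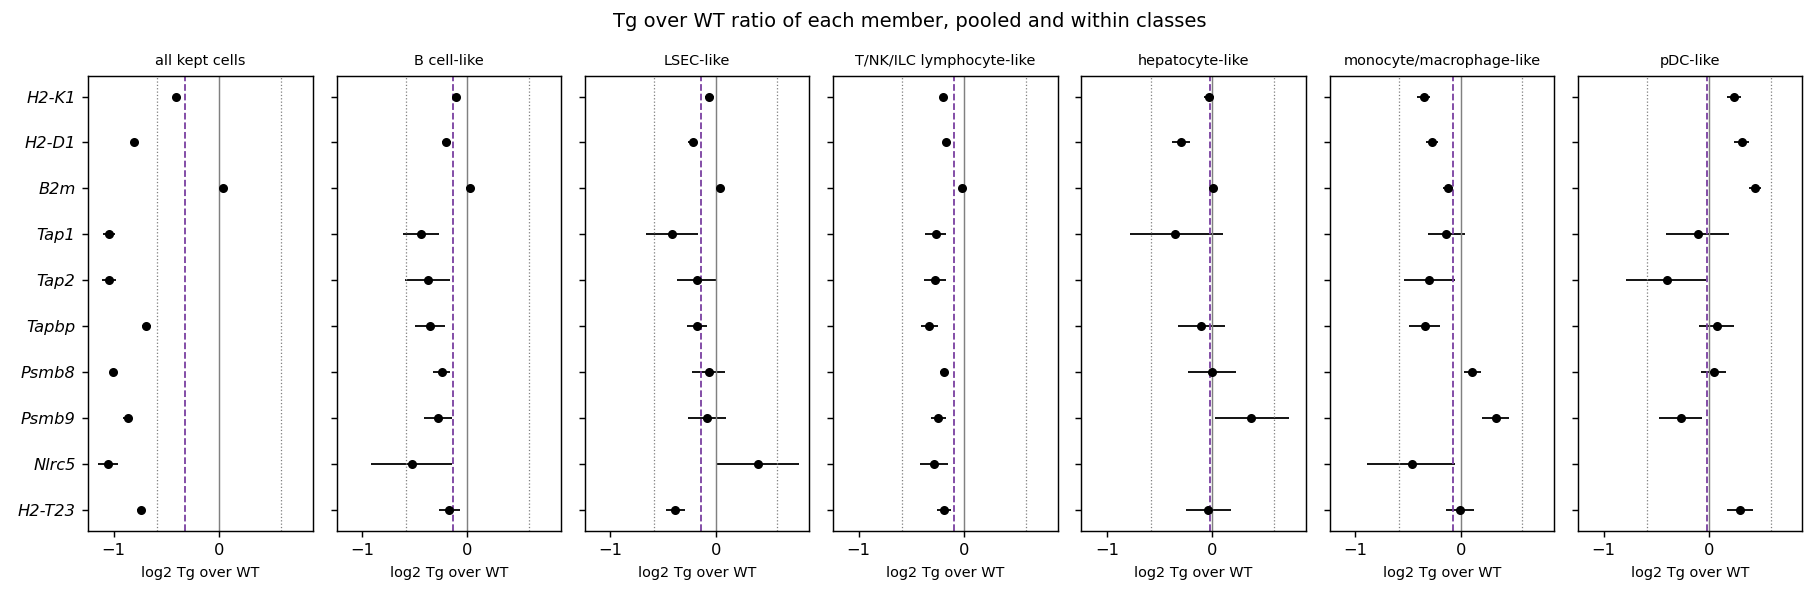
Log2 ratio of Tg over WT for each gene, pooled over all kept cells and within B cell-like, LSEC-like, lymphocyte-like, hepatocyte-like, monocyte-like and pDC-like cells, with bars for exact 95% conditional intervals; the purple dashed line is the median over all genes tested, dotted lines mark 1.5-fold, and genes under 50 UMIs in a library are not drawn. When all cells are pooled 8 genes pass the lower dotted line, and none does within these 6 classes.

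In the monocyte or monocyte-derived macrophage-like class (333 and 326 cells) the classical heavy chains and Psmb8 with Psmb9 parted. On the CPM scale 8 of 10 genes were lower in Tg, and 7 with TMM scaling, with a median of −0.20 beside −0.07 over all genes. H2-K1 stood at 1384 (1349–1420) and 1086 (1050–1123) CPM, H2-D1 at 1514 and 1254 CPM, and Tapbp at 244 and 192 CPM. Psmb9 stood at 238 (224–254) and 300.4 (282–320) CPM, a ratio of 0.33 (0.20 to 0.46), and Psmb8 at 0.11 (0.03 to 0.20), yet both turned sign when cells were thinned to 1000 UMIs. The remaining inducible subunit gene Psmb10 stood at −0.12 (−0.28 to 0.04), and H2-T23 at −0.005 (−0.14 to 0.12), turning to 0.065 with TMM scaling. At finer resolution the class parted. Finer cluster 22 (187 and 207 cells) had the leading genes Cst3, Plbd1 and H2-Ab1 and was named for dendritic cells, whereas finer cluster 31 (146 and 119 cells) had Lyz2, Chil3 and F13a1 in front and was named for monocytes.

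The higher Psmb9 level in Tg belonged to finer cluster 22, at 281 and 372 CPM, a ratio of 0.40 (0.26 to 0.55), with Psmb8 at 734 and 801 CPM. In the monocyte-like finer cluster 31 Psmb9 stood at 171 and 143 CPM, a ratio of −0.26 (−0.57 to 0.03). There all 8 measured members were lower in Tg, with CPM and with TMM scaling, and 2 of them by at least 1.5-fold, where 2.66% of all genes were. These were Tap1, at 157 and 92.4 CPM (−0.77, −1.13 to −0.42), and Tapbp, at 279 and 175 CPM (−0.67, −0.93 to −0.42). H2-K1 was lower in both finer clusters, at −0.37 and −0.42. Irf1, an interferon-induced activator of class I genes, stood at 121 and 69.5 CPM in the whole class. T and NK cell markers summed to 1412 and 575 CPM, with all 20 higher in WT. Erythroid markers summed to 3857 and 52.9 CPM, with all 7 higher in WT. The part of Irf1 and of these transcripts in the ratios was not tested.

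The classes with 75 to 200 cells in at least 1 library were compared too. In pDC-like cells (397 and 145) 6 of 9 measured members were higher in Tg, with TMM scaling too, and none by 1.5-fold, where 7.46% of all genes passed it in either direction. B2m stood at 2101 (2058–2145) and 2842 (2743–2942) CPM, H2-D1 at 1457 and 1806 CPM, H2-K1 at 1770 and 2093 CPM and H2-T23 at 0.30 (0.17 to 0.42), so the light chain and all 3 heavy chains were higher. Psmb9 (−0.26), Tap2 (−0.40) and Tap1 (−0.10) were lower there. H2-Q7, another heavy chain gene, stood at 424 and 677 CPM in the same cells. Markers of other cells moved in both directions. Monocyte markers summed to 3295 and 4292 CPM, although 6 of the 10 were higher in WT and 3 in Tg, with Chil3, F13a1 and Csf1r at 0 in Tg. T and NK cell markers summed to 1444 and 1134 CPM, B cell markers to 627 and 347 CPM and erythroid markers to 3216 and 77.4 CPM. Their part in the ratios was not tested.

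Of the measured members, none passed 1.5-fold among 7 in Kupffer cell-like cells (15.1% of all genes did) or among 7 in vascular endothelial cell-like cells (10.1%), where B2m stood at 0.30 (0.20 to 0.40) and 6 of 7 were higher, as with TMM scaling. In cluster 24 alone (56 and 241 cells), which held most vascular endothelial cell-like cells, 4 of 6 measured members were lower instead, with a median of −0.02 beside −0.14 over all genes and B2m at 0.12 (0.02 to 0.23). Among 8 in the fibroblast or mesothelial class, of which 8 were lower on the CPM scale and 6 with TMM scaling, 1 did, Tap2 at −0.76 (−1.23 to −0.32), beside 12% of all genes. In cluster 28 alone (136 and 88 cells), which held most of that class, 3 of 7 measured members were lower and 4 higher, with a median of 0.04, so the common direction was lost. Tap2 fell under the minimum there with 39 UMIs in Tg and stood at −0.82 (−1.36 to −0.32). In neutrophil-like cells 1 of 7 did, Psmb8 at 224 (197–254) and 129 (99.7–163) CPM, beside 16.7%. T and NK cell markers summed to 561 and 259 CPM in neutrophil-like cells and B cell markers to 333 and 13.4 CPM, with all 8 of the latter higher in WT, and their part in the Psmb8 ratio was not tested.

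Erythroid cell-like cells (469 and 242) had 3 measured members, and all were lower in Tg, 2 of them by at least 1.5-fold, where 31.0% of all genes were. In either direction 62.3% of all genes passed that limit. H2-K1 stood at 440.4 (420–462) and 198 (173–224) CPM, H2-D1 at 272 (256–289) and 86.7 (70.8–105) CPM and B2m at 436 and 301 CPM. TMM scaling shifted all ratios of this class up by 0.82 and turned B2m to 0.29, with H2-K1 at −0.33 and H2-D1 at −0.82. Lymphocyte transcripts moved with these levels: the 20 T and NK cell markers summed to 942 and 138 CPM and all were higher in WT, with Cd8a and Cd5 at 0 in Tg, and the 8 B cell markers summed to 184 and 129 CPM. Their part in the result was not tested. Tap2 had 54 UMIs in WT and 0 in Tg, where the floor of 3 counts is 2.50 CPM. At finer resolution the WT cells parted. Finer cluster 30 (281 and 5 cells) held all members at 147 and 439 CPM in sum. Finer cluster 21 (164 and 231 cells) held them at 3606 and 639 CPM. There all 3 measured members were at least 1.5-fold lower in Tg, where 49.9% of all genes were. The WT levels of the class thus came mainly from the finer cluster with fewer WT cells.

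Among the other genes of the pathway, the heavy chain gene H2-Q10, a liver-secreted class I molecule, reached 2015 and 1927 CPM in the hepatocyte-like class. LSEC-like cells held 55.6 and 291 CPM of it and lymphocyte-like cells 52.4 and 229 CPM, and hepatocyte transcripts were higher in Tg in both. Leaving H2-Q10 aside, the lymphocyte-like class held 1028 and 821 CPM of H2-Q7, the B cell-like class 329 and 248 CPM and the monocyte-like class 238 and 137 CPM. Of 8 constitutive proteasome subunits, 5 were higher in Tg in lymphocyte-like cells (median 0.08), 5 in the B cell-like (0.04), 6 in the LSEC-like (0.07), 7 in the monocyte-like (0.14) and all 8 in the hepatocyte-like class (0.26), and all 8 were higher in each of the 5 with TMM scaling.

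Of the peptide loading and trimming list, which holds the chaperones Calr and Pdia3 and the trimming enzyme Erap1, 4 of 6 genes were lower in the LSEC-like class (median −0.21), with TMM scaling too. In lymphocyte-like cells 4 of 6 were lower and with TMM scaling 2, and in the monocyte-like class 5 and 3. Hepatocyte-like cells held 933 and 934 CPM of Calr, above LSEC-like (664 and 732 CPM) and lymphocyte-like cells (370 and 391 CPM). This general chaperone was thus abundant in the cells where the class I-specific loading genes were low. Of the interferon receptor and signalling list, 6 of 9 genes were lower in lymphocyte-like cells with both scalings, and in B cell-like cells 8 of 9, which became 3 of 9 with TMM scaling. Of the other class I heavy chain genes, 6 of 6 measured were higher in pDC-like cells with both scalings (median 0.77), H2-Q10 among them, whereas 6 of 8 were lower in lymphocyte-like cells. Rfx5, a subunit of the RFX complex, stood at 25.7 and 12.4 CPM in B cell-like cells.

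Members varied together across classes to different degrees. Over the 9 classes other than erythroid and hepatocyte, the correlation of log2 levels between Psmb8 and Psmb9 was 0.98 in WT and 0.95 in Tg, and between the divergent neighbours Tap1 and Psmb9 it was 0.86 and 0.96. For Tap1 and Tapbp it was −0.40 and −0.36. Over all 11 classes the last pair gave 0.58 and 0.76, so its sign depended on the erythroid and hepatocyte classes. Genes most like the mean of the members over the 11 classes included Polr2g, Znrd1, Mycbp2 and Snrnp70 (lower of the correlations in the 2 libraries 0.971 to 0.967). Over the 9 classes they were Psme1 (0.919) and Psme2 (0.896), which encode the interferon-induced PA28 proteasome activator, then Atp5mpl, Mrpl18 and Klrd1. These are descriptions over few classes that share libraries and depth, and the 9-class version was chosen after the data were seen.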

How the data were processed

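Single-cell RNA counts were analysed from 2 libraries, 1 per genotype. The deposited values are UMI counts per gene and barcode. Per the submitters' processing notes, Cell Ranger 6.1.2, R 4.1.0 and Seurat 4.0.2 were used with GRCm38/mm10; the matrix headers name Cell Ranger 5.0.1. The series text mentions removal of free RNA with SoupX, but the deposited counts are whole numbers and were treated as uncorrected. The authors' cell annotation was not used here.

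Barcodes were kept with at least 500 UMIs, 200 genes and at most 20% mitochondrial UMIs. Scrublet (scanpy 1.11.5) marked no cell at its automatic threshold, so cells scoring above 0.2 were removed (479 and 404). Counts per 10000 of 2000 variable genes, without members and pathway lists, gave 30 components and Leiden clusters at resolution 1.0 (leidenalg 0.10.2). A cluster was named from at least 3 enriched markers, by a rule set with the clusters in view. UMIs were summed per class and library. A class needed 200 cells per library for the main comparison and 75 for a description, and genes with at least 50 UMIs in each library entered medians and counts. Intervals are Poisson, conditional binomial and Clopper-Pearson. The floor for a count of 0 is 3 counts. The ratio code was tested on simulated data. All 10 members are named, with 13 other pathway genes available for naming and every list counted. Members and lists were chosen with earlier results of these data known. Alternatives were TMM (edgeR 4.0.16) and DESeq2 1.42.0 factors, hepatocyte subtraction, means over cells, thinning, other cell filters, resolutions and gene sets, and, chosen after seeing the data, single clusters. No paired analysis was possible because each group is 1 library.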

Additional observations from a re-analysis of the deposited data

Results flagged for a closer look

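On the CPM scale some genes stood on opposite sides of 0 in different classes, with counting intervals clear of 0 on both sides. With 1 library per group the difference between classes was not tested. B2m stood at 0.04 in LSEC-like and −0.115 in monocyte-like cells. Psmb8 stood at 0.112 in monocyte-like and −0.242 in B cell-like cells. Psmb9 stood at 0.367 in hepatocyte-like and −0.276 in B cell-like cells. Nlrc5 stood at 0.398 in LSEC-like and −0.526 in B cell-like cells. Not all of these signs held in other settings. Psmb8 in monocyte-like cells turned when cells were thinned and in finer cluster 31 alone (−0.239). Nlrc5 in LSEC-like cells turned when doublets were kept, and Psmb9 in B cell-like cells turned in marker-strict cells. The other signs held in all settings run, with B2m in monocyte-like cells at −0.045 with TMM scaling. For hepatocyte-like cells those settings left out cluster 0 alone, where Psmb9 had 9 UMIs in WT and 148 in Tg. The sign of Psmb9 in that cluster is thus not settled.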

How the results depend on the processing

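The lymphocyte-like median of −0.22 became −0.135 with TMM, −0.127 with DESeq2 factors, −0.127 after hepatocyte subtraction and −0.293 in marker-strict cells (278 and 1552), and −0.108 and −0.033 in clusters 16 and 26 alone, which were added after seeing the data. Marker-strict cells had at least 2 own markers and no UMI of a T, NK, B cell or erythroid marker of another class. This kept 278 of 4566 WT but 1552 of 2476 Tg lymphocyte-like cells, so the selection differed by library. Medians of B cell-like, LSEC-like, hepatocyte-like and monocyte-like classes moved by less than their spread in the settings run. For hepatocyte-like cells that spread was the full range of the 8 measured members, −0.35 to 0.37. Cluster 0 alone was not among the settings of that class, and its median over 3 measured members was −0.48. Inducible proteasome shares after hepatocyte subtraction in Tg were 68.61% (B cell-like), 54.02% (LSEC-like), 76.12% (lymphocyte-like) and 51.0% (erythroid cell-like). Thinned to 1000 UMIs they were 62.63% (B cell-like, Tg), 50.9% (LSEC-like, WT), 77.33% (lymphocyte-like, WT), 66.67% (erythroid cell-like, WT), and 73.25% and 68.64% (monocyte-like, WT and Tg); with at most 10% mitochondrial UMIs the hepatocyte-like Tg share was 23.65%. The cause was not tested. Pooled over all kept cells, 8 of 10 members were at least 1.5-fold lower, and 4 with TMM scaling. The other 87 of 104 class values stayed within their spread. Of 48 gene and class pairs, 26 kept their sign in all settings run. Too few members had 50 UMIs for a median in the erythroid class, in hepatocyte-like cells when thinned, marker-strict or limited to 10% mitochondrial UMIs, and in marker-strict monocyte-like cells. Depth limited Nlrc5 and Tap2 in hepatocyte-like cells.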

Other observations

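A small cluster that took no cell class name, cluster 35 (17 and 35 cells), was led by the interferon-induced genes Ifit1, Cxcl10 and Isg15 and held class I genes at high levels in both libraries. H2-K1 stood at 3987 and 2841 CPM and B2m at 3912 and 2942 CPM, from 424 and 558 and from 416 and 578 UMIs. Psmb8 stood at 1222 and 774 CPM and Tap1 at 235 and 224 CPM, above the lymphocyte-like class in each library. Its inducible proteasome share was 86.3% (81.4–90.2) and 79.3% (74.5–83.5). With so few cells these are values of single small groups.

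Plasma cell-like cells (311 and 55), too few in Tg to be compared, held B2m at 2135 and 2522 CPM and Tapbp at 161 and 93.6 CPM. Cholangiocyte-like cells (36 and 99), the bile duct lining, held H2-K1 at 2383 and 1838 CPM.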
